A study of Mus musculus with 12 samples.

Results

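The 8 genes described here encode proteins of the fibrous sheath, the scaffold that wraps the principal piece of the sperm tail, or proteins that dock onto its anchoring subunits. They are Akap4 and Akap3 (A-kinase anchoring proteins), Fsip1 and Fsip2 (fibrous sheath interacting proteins), and Ropn1, Ropn1l, Spa17 and Cabyr, which bind anchoring proteins. Members were every contig of the count table whose mouse gene symbol was 1 of these 8, ignoring case. A contig is a reference sequence to which reads were assigned, a transcript or, for some contigs of the table, a repeat. The rule found 20 contigs among 12114, and used no measured value. Akap3, Akap4 and Fsip1 had 3 contigs each, Fsip2, Ropn1 and Spa17 had 2, Cabyr had 4 and Ropn1l had 1. All 20 passed the filter on low counts, which asked for 10 or more reads in 2 or more libraries of any group.

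The study measured native poly(A) RNA of sorted mouse spermatids by nanopore direct RNA sequencing, in which a read is a single RNA molecule. There were 4 groups of 3 libraries: round spermatids (RS) with Tent5c wt/wt, RS with Tent5c dcat/dcat, elongated spermatids (ES) with Tent5c wt/wt and ES with Tent5c dcat/dcat. All mice were adult males. The dcat allele encodes a TENT5C protein (a poly(A) polymerase of the cytoplasm) that is made but has lost its catalytic activity, so the number of Tent5c reads does not test the genotype label. Each library pooled the RNA of 3 mice, so the spread between libraries is that between pools, and p-values measure only that spread. Cells were sorted from testis suspensions on DNA stain and light scatter, with no surface marker.

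A-kinase anchoring proteins hold protein kinase A in place by binding its regulatory subunits. AKAP4 is the most abundant protein of the fibrous sheath, and males that lack it are infertile with short, immotile tails. AKAP3 is the sheath's other main anchoring protein. FSIP1 and FSIP2 were found as partners of AKAP4. ROPN1 (ropporin), ROPN1L, SPA17 and CABYR all carry a fold like the docking domain of the type II regulatory subunit, with which they bind anchoring proteins without being kinase subunits. Transcription stops as spermatids elongate and their chromatin is packed with protamines. Sheath proteins are assembled along the tail during and after this time.

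The libraries held between 337287 and 1359427 counts, the lowest being replicate 3 of ES wt/wt. Levels are given as CPM, reads scaled to a common library size by edgeR's trimmed mean of M values (TMM), per contig and not per base of length. Summed over 9 spermatid markers (among them protamines and transition proteins), the level was 31604 CPM on average in RS wt/wt and 245006 CPM in ES wt/wt. The 8 of 9 meiotic markers with a row in the count table summed to between 793 and 978 CPM in RS wt/wt and between 430 and 543 CPM in ES wt/wt. Of 7 Leydig cell markers, 4 had a row (Cyp11a1, Cyp17a1, Insl3 and Fdx1). They summed to between 62.2 and 121 CPM in the 6 RS libraries and between 218 and 745 CPM in the 6 ES libraries. The study also describes Insl3 transcripts in its ES samples. For 2 of 8 Sertoli cell markers (Clu and Cst12) the ranges were 2.13 to 15.7 CPM and 77.6 to 163 CPM. Wt1, Sox9, Amh, Rhox5, Gata4, Fshr, Star, Lhcgr and Hsd3b1 had no row, nor did any of the 3 macrophage or 2 erythrocyte markers. These marker levels moved with stage, as did the member genes, and their part in the stage differences was not tested. In such sorted bulk samples, fewer molecules per cell and fewer cells that hold them cannot be told apart.

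Promoter sequences came from RefSeq on GRCm38.p6, each 250 bases before and 50 after a gene's start. A total of 8 windows covered 6 of the 8 genes: Akap3, Akap4 (2 starts), Fsip2, Ropn1, Ropn1l and Spa17 (2 starts a base apart). Fsip1 and Cabyr were not covered by these windows. The chromosome that holds Cabyr was left out when the member windows were picked, so Cabyr could not be among them. The gap does not show that RefSeq lacks a start for either gene, and the counts for member windows below say nothing about these genes. The windows of Akap3 and of the upstream Akap4 start are shown because the capitals mark a run of 20 bases that both hold on the same strand.

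Akap3, chr6:126852848-126853147, plus strand: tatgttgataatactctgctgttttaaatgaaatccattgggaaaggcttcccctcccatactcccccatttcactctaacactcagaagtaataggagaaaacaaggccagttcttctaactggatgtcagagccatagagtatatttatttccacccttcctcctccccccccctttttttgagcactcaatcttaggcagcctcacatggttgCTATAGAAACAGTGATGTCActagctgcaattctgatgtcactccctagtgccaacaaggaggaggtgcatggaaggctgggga
Akap4, chrX:7067265-7067564, plus strand: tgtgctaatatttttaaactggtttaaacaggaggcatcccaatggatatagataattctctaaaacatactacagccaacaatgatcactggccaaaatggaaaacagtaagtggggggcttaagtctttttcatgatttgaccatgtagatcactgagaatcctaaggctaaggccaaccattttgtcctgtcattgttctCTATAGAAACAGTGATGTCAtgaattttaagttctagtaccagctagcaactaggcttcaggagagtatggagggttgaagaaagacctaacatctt

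The run ended 14 bases before the RefSeq start of Akap3 and 27 bases before that of Akap4. On either strand it stood in 2 of all 32851 RefSeq promoter windows, these 2. It was picked as the longest run these 2 windows share, so both hold it by construction. How often other pairs of all windows share a run this long was not measured. Over the 25 other pairs of these windows from different genes, which leave out Fsip1 and Cabyr, the longest shared run was between 7 and 10 bases. The downstream Akap4 window, chrX:7067960-7068259, from which the contig Akap4-203 starts, does not hold it. Motifs were searched on both strands. TGACGTCA, the whole cyclic AMP response element, was in 0 of the 8 member windows and in 1.79% of all windows. Its shorter form TGACG, which the longer motif contains, was in the Fsip2 window alone and in 20.8% of all. TATAAA was in none of the 8 and in 13.6% of all. CCAAT was in the windows of Akap3, upstream Akap4 and Fsip2 and in 37.4% of all. The run ends in TGATGTCA, a motif searched after the run had been seen, which 3.62% of all windows hold. A match is a description of letters and not a binding site.

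**Figure D1:**
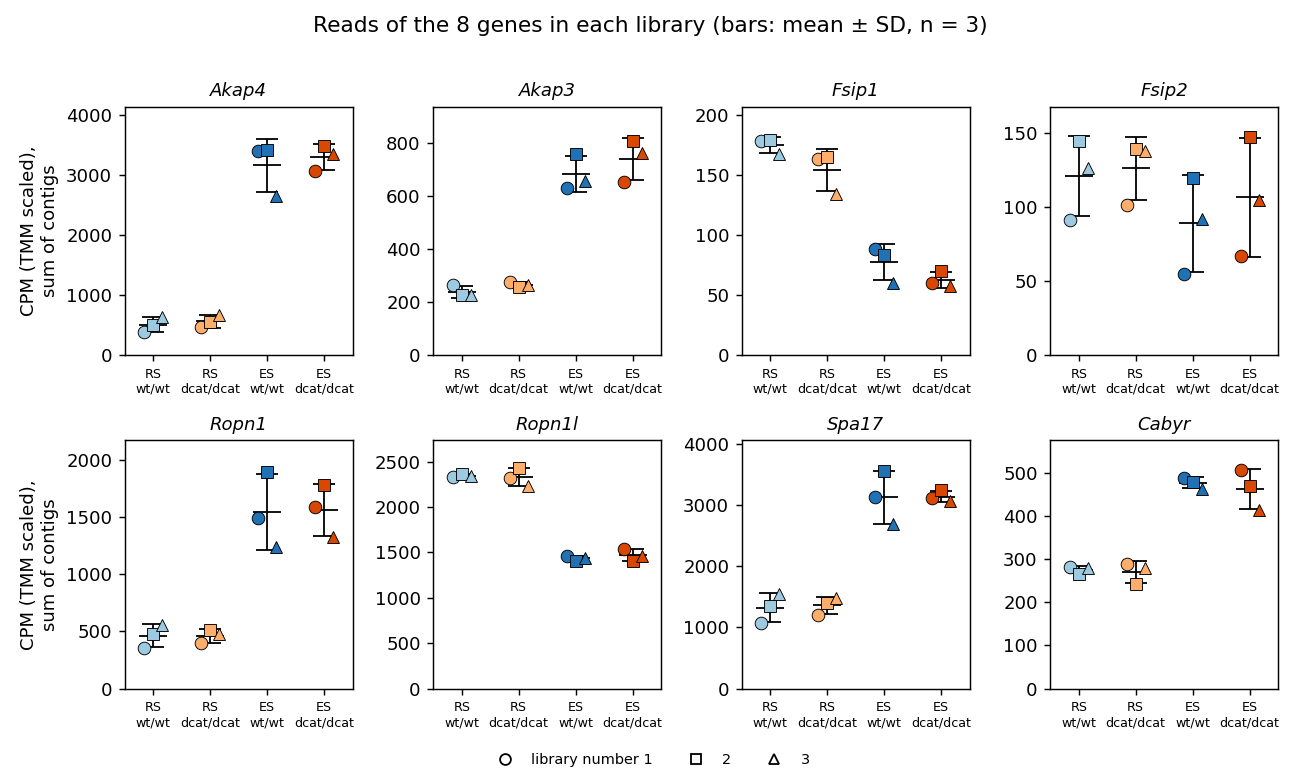
Level of each gene in each of the 12 libraries, as CPM summed over its contigs (linear axes from 0; symbols give the library number, bars the mean ± SD of 3 libraries). Akap4, Akap3, Ropn1, Spa17 and Cabyr were higher in every ES library than in any RS library, Fsip1 and Ropn1l were lower in every ES library, and Fsip2 overlapped.

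The first comparison was between the stages, RS against ES, within each genotype. A rise or fall is relative to the other reads of a library and does not give molecules per cell. From published single-cell data, the paper reports that absolute transcript abundance decreased as spermatids elongated. The genes for the anchoring proteins themselves rose, Akap4 most and Akap3 less. Among their binding partners Ropn1, Spa17 and, with its contigs summed, Cabyr rose, while Ropn1l fell. Fsip1 fell and Fsip2 did not pass the test. In wt/wt, 8 of 20 member contigs were called higher in ES, against 23.8% of all 11831 contigs tested, and 3 were called lower, against 16.5% (edgeR's quasi-likelihood test, adjusted p at or under 0.05 over all contigs). In dcat/dcat, 9 of 20 were higher, against 24.0% of all, and 4 were lower, against 16.9%. The median log2 change of the 20 contigs was 0.75 in wt/wt and 1.21 in dcat/dcat, beside -0.24 and -0.18 over all contigs. The 3 RS and 3 ES libraries did not overlap for 12 member contigs in wt/wt, against 53.3% of all contigs, and for 13 in dcat/dcat, against 50.9%.

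The scale matters for the smaller changes. When libraries were scaled by their total counts alone, the log2 stage changes shifted by a median of -0.715 over all contigs for wt/wt and of -0.664 for dcat/dcat. The member calls then split as 8 higher and 6 lower in wt/wt, where 16.5% of all contigs were called higher and 45.7% lower. In dcat/dcat the split was 7 and 7, against 16.6% and 42.2% of all. With counts summed by gene, 7 of the 8 genes were called in each genotype, against 49.0% (wt/wt) and 49.2% (dcat/dcat) of the 7706 features tested. As a plain share of all counts, the 8 genes together took 0.693 ± 0.0417% of reads in RS wt/wt, 0.700 ± 0.0319% in RS dcat/dcat, 0.820 ± 0.0563% in ES wt/wt and 0.861 ± 0.0554% in ES dcat/dcat (SD, n = 3). Every ES library lay above every RS library. The difference of 0.144 percentage points between stages had p = 0.005 in an exact two-sided permutation test over libraries (q = 0.01 over 2 tests), the smallest p these 400 arrangements allow. That between genotypes, 0.0238 points, had p = 0.37 in the same exact test.

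**Figure D2:**
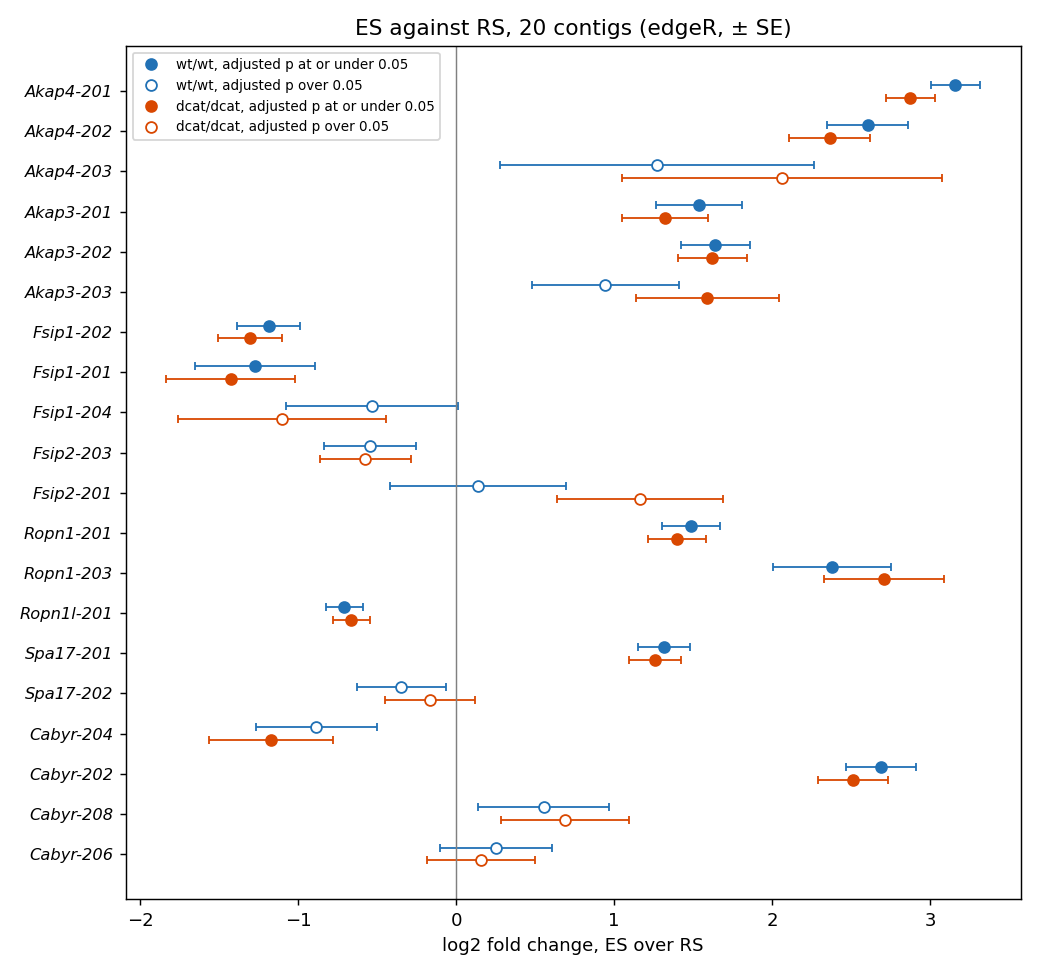
Log2 fold change of ES over RS for the 20 member contigs (x axis) in wt/wt (blue) and dcat/dcat (orange); whiskers are the SE from edgeR, filled points have an adjusted p at or under 0.05. Akap4-201, Akap4-202 and Cabyr-202 lie farthest to the right in wt/wt, and contigs of the same gene differ, above all for Cabyr.

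Akap4 lies on chromosome X from 7067519 to 7078609 on the plus strand of GRCm38. Its most counted contig, Akap4-201 (ENSMUST00000057101, 6 exons), was at 191, 167 and 215 CPM in RS wt/wt and at 216, 233 and 252 CPM in RS dcat/dcat. In ES it stood at 1752, 1596 and 1794 CPM in wt/wt and at 1533, 1838 and 1783 CPM in dcat/dcat. Every ES library was far above every RS library. The rise was 3.16 ± 0.16 (log2, SE) in wt/wt, or 8.94-fold (adjusted p = 4.72e-08), and 2.88 ± 0.15 in dcat/dcat, or 7.34-fold (adjusted p = 1.52e-07). Akap4-202 (ENSMUST00000115750), which has an additional exon of 176 bases, rose by 2.61 ± 0.26 and 2.36 ± 0.26. The sum over all 3 contigs, tested on counts summed by gene, rose by 2.73 ± 0.21 in wt/wt and 2.66 ± 0.21 in dcat/dcat, 6.63- and 6.32-fold.

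Akap4-203 (ENSMUST00000115751) begins at 7068213, downstream of the first exon of the other contigs, and shares their last 5 exons up to its end, 18 bases short of the end of Akap4-201. It was at 14.1, 185 and 201 CPM in RS wt/wt, at 19.2, 135 and 183 CPM in RS dcat/dcat, at 86.6, 801 and 56.5 CPM in ES wt/wt and at 99.7, 669 and 648 CPM in ES dcat/dcat. The 4 libraries numbered 1, and replicate 3 of ES wt/wt, were low within their groups. The groups overlapped, and the change missed the threshold in wt/wt (1.27 ± 0.99, adjusted p = 0.319) and in dcat/dcat (2.07 ± 1.01, adjusted p = 0.117). With the replicate number as a block the changes were 1.33 in wt/wt (adjusted p = 0.00992) and 2.07 in dcat/dcat (adjusted p = 0.000134). The block called 51.6% of all contigs in wt/wt and 51.9% in dcat/dcat. Without replicate 2 of ES wt/wt the wt/wt value turned to -0.76.

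Akap3 lies on chromosome 6 from 126853098 to 126874308 on the plus strand, and its 3 contigs have the same coding length of 2592 bases. Akap3-201 (ENSMUST00000095440) was at 174, 85.8 and 82.2 CPM in RS wt/wt, 173, 108 and 111 CPM in RS dcat/dcat, 344, 342 and 304 CPM in ES wt/wt and 350, 330 and 304 CPM in ES dcat/dcat. The stages did not overlap, and the RS libraries numbered 1 were the highest of their groups. It rose by 1.54 ± 0.27 in wt/wt (adjusted p = 0.00046) and 1.33 ± 0.27 in dcat/dcat (adjusted p = 0.00136). Akap3-202 rose by 1.64 ± 0.22 and 1.62 ± 0.22. Akap3-203 stood at 13.3, 38.1 and 37.9 CPM in RS wt/wt and 29.6, 81.8 and 60.0 CPM in ES wt/wt, where its change of 0.94 ± 0.47 missed the threshold (adjusted p = 0.119), and it rose by 1.59 ± 0.45 in dcat/dcat (adjusted p = 0.0115). With single libraries left out the wt/wt value ran from 0.58 (without replicate 1 of RS wt/wt, adjusted p = 0.306) to 1.37 (without replicate 1 of ES wt/wt, adjusted p = 0.0338), and with the replicate block it was 0.96 (adjusted p = 0.00241). The dcat/dcat call was lost without replicate 2 of ES dcat/dcat (adjusted p = 0.0516). Under scaling by total counts the dcat/dcat changes of Akap3-201 and Akap3-203 were 0.65 and 0.93 and missed the threshold. Summed by gene, Akap3 rose 3.10-fold in wt/wt and 3.02-fold in dcat/dcat, from 238 ± 22.0 to 682 ± 68.2 CPM in wt/wt (SD, n = 3).

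The ratio of the anchoring genes moved as well. Akap4 reads over Akap3 reads, on a log2 scale with 0.5 added to each count, averaged 1.07 ± 0.47 (wt/wt) and 1.06 ± 0.29 (dcat/dcat) in RS, against 2.20 ± 0.21 and 2.16 ± 0.06 in ES (SD, n = 3). The stage difference of 1.11 had p = 0.005 in the exact two-sided permutation test (q = 0.0133 over the 8 tests on ratios). This ratio compares read counts and does not depend on how libraries are scaled.

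Of the fibrous sheath interacting genes, Fsip1 (chromosome 2, 118130424 to 118256966, minus strand) fell. Its contig Fsip1-202 (ENSMUST00000028821) was at 129, 120 and 122 CPM in RS wt/wt and 119, 127 and 97.2 CPM in RS dcat/dcat, then at 59.2, 53.3 and 49.4 CPM in ES wt/wt and 46.4, 42.4 and 49.0 CPM in ES dcat/dcat. All ES libraries were below all RS libraries. The change was -1.19 ± 0.20 in wt/wt (adjusted p = 0.000303) and -1.30 ± 0.20 in dcat/dcat (adjusted p = 0.000155). Fsip1-201, a shorter contig of 6 exons, fell by 1.27 and 1.43 on the log2 scale (changes of -1.27 ± 0.38 and -1.43 ± 0.41). Its ES counts were between 1 and 11 reads per library, and the wt/wt call was lost without replicate 1 or replicate 3 of ES wt/wt (adjusted p = 0.0696 and 0.0509). The dcat/dcat call was lost without replicate 3 of ES dcat/dcat (adjusted p = 0.0827). Fsip1-204, with between 1 and 20 reads per library, had changes of -0.53 ± 0.55 and -1.10 ± 0.66 that missed the threshold. With single libraries left out the second ran from -2.36 without replicate 2 of ES dcat/dcat (adjusted p = 0.0329) to -0.55 without replicate 3 of ES dcat/dcat (adjusted p = 0.58).

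Fsip2 (chromosome 2, 82943634 to 83008937, plus strand) is the longest transcript of the set. Fsip2-203 (ENSMUST00000143764) spans 21116 bases in 23 exons, and it was at 80.6, 118 and 113 CPM in RS wt/wt and 48.6, 93.2 and 70.6 CPM in ES wt/wt. In dcat/dcat it was at 95.1, 121 and 122 CPM in RS and 46.4, 97.4 and 82.7 CPM in ES. The stages overlapped, and the changes of -0.54 ± 0.29 and -0.57 ± 0.29 missed the threshold (adjusted p = 0.152 and 0.125). They passed under scaling by total counts, as -1.26 and -1.24, and in the fit on contigs with 10 reads in every library, as -0.86 and -0.84. With the replicate block they were -0.55 (adjusted p = 0.0243) and -0.60 (adjusted p = 0.0117). Without replicate 1 of ES wt/wt the wt/wt change was -0.23 (adjusted p = 0.608), and without replicate 1 of ES dcat/dcat the dcat/dcat change was -0.32 (adjusted p = 0.396). Fsip2-201, which starts inside the gene, has 7 exons and is annotated as a target of nonsense-mediated decay, changed by 0.14 ± 0.56 and 1.16 ± 0.53, neither past the threshold, and in dcat/dcat by 1.11 with the block (adjusted p = 0.00797). The wt/wt value was -0.57 under scaling by total counts.

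The log2 ratio of Fsip2 to Fsip1 reads averaged -0.56 ± 0.35 in RS wt/wt, -0.30 ± 0.36 in RS dcat/dcat, 0.14 ± 0.72 in ES wt/wt and 0.69 ± 0.48 in ES dcat/dcat (SD, n = 3). The stage difference of 0.85 lay on the threshold (p = 0.025 in the exact two-sided permutation test, q = 0.05 over 8 tests), and it did not pass on the most abundant contigs alone (0.64, q = 0.08). With single libraries left out it ranged from 0.73 to 1.05, and q was above 0.05 in all cases but those without replicate 1 of ES wt/wt or of ES dcat/dcat. The ES values rest on few reads: Fsip2-203 had between 20 and 49 reads in an ES library and Fsip1-202 between 14 and 29.

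The paralogs Ropn1 and Ropn1l moved in opposite directions. Ropn1 lies on chromosome 16 from 34651188 to 34678618 on the plus strand, and Ropn1l on chromosome 15 from 31441211 to 31453737 on the minus strand. Ropn1-201 (ENSMUST00000023530) was at 316, 347 and 419 CPM in RS wt/wt, 345, 399 and 377 CPM in RS dcat/dcat, 1008, 1210 and 812 CPM in ES wt/wt and 1006, 1126 and 827 CPM in ES dcat/dcat. The lowest ES library was above the highest RS library, with a rise of 1.49 ± 0.18 in wt/wt (adjusted p = 1.88e-05) and 1.40 ± 0.18 in dcat/dcat (adjusted p = 3.59e-05). Ropn1l-201 (ENSMUST00000110408) was at 2326, 2364 and 2347 CPM in RS wt/wt and 2320, 2432 and 2231 CPM in RS dcat/dcat. It stood at 1462, 1406 and 1441 CPM in ES wt/wt and 1542, 1408 and 1461 CPM in ES dcat/dcat, and no library of either stage reached the other's range. The fall was -0.71 ± 0.12 in wt/wt (adjusted p = 0.000228) and -0.66 ± 0.11 in dcat/dcat (adjusted p = 0.00038).

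As a plain share of all counts, Ropn1l of wt/wt took 0.299 ± 0.00636% of reads in RS and 0.112 ± 0.00805% in ES, while Ropn1 took 0.0587 ± 0.0112% and 0.119 ± 0.0210% (SD, n = 3). The log2 ratio of Ropn1l to Ropn1 reads averaged 2.36 ± 0.31 (wt/wt) and 2.34 ± 0.18 (dcat/dcat) in RS, against -0.08 ± 0.33 and -0.08 ± 0.24 in ES. Ropn1l reads thus outnumbered Ropn1 reads in every RS library, and in ES their counts were close. The stage difference of -2.43 was the largest in size of the 4 gene pairs (p = 0.005 in the exact permutation test, q = 0.0133), and it was between -2.51 and -2.34 with any single library left out.

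**Figure D3:**
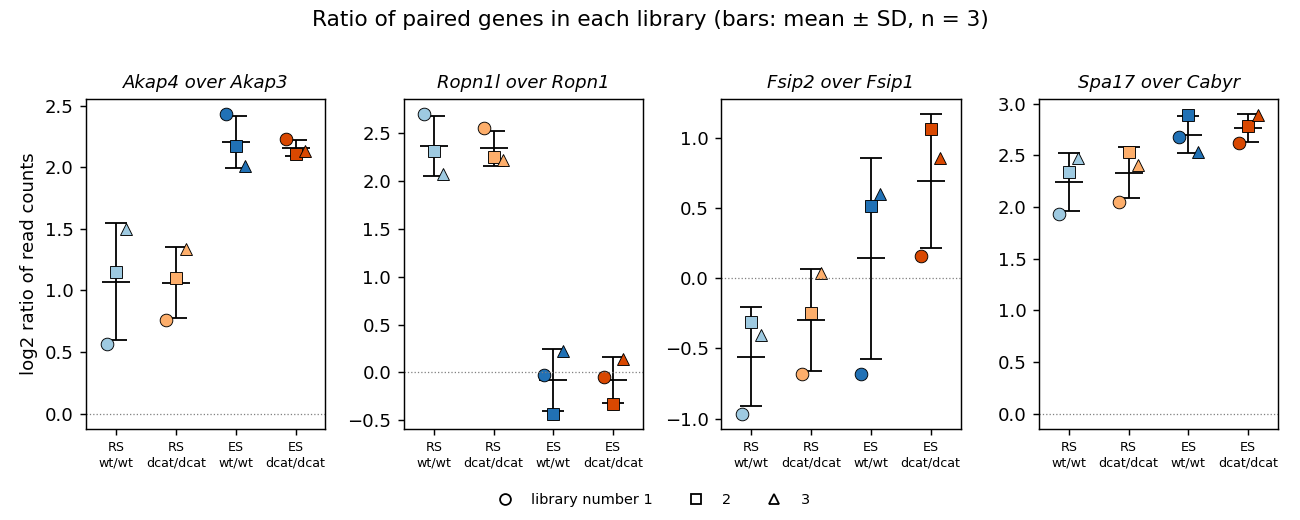
Log2 ratio of read counts of 4 gene pairs in each library (y axis; symbols give the library number, bars the mean ± SD of 3 libraries, the dotted line equal counts). Akap4 over Akap3 is higher and Ropn1l over Ropn1 lower in all ES libraries than in all RS libraries.

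Spa17 (chromosome 9, 37603290 to 37613722, minus strand) rose. Its main contig Spa17-201 (ENSMUST00000002013) was at 986, 1238 and 1454 CPM in RS wt/wt, 1108, 1320 and 1407 CPM in RS dcat/dcat, 3028, 3508 and 2624 CPM in ES wt/wt and 3005, 3193 and 2997 CPM in ES dcat/dcat. The stages did not overlap, and the rise was 1.32 ± 0.16 in wt/wt (adjusted p = 2.25e-05) and 1.26 ± 0.16 in dcat/dcat (adjusted p = 3.64e-05). Spa17-202 (ENSMUST00000214786), whose coding length is 390 bases against 447, had a level of 95.7 ± 11.3 CPM in RS wt/wt and 75.1 ± 24.4 CPM in ES wt/wt, and missed the threshold in both genotypes (-0.35 ± 0.28 and -0.17 ± 0.28), passing under scaling by total counts (-1.07 and -0.84). The share of Spa17 reads on Spa17-201 was between 92.0 and 94.9% in RS libraries and between 96.7 and 98.5% in ES libraries. That difference of 4.36 percentage points had p = 0.005 in the exact permutation test (q = 0.02 over 12 tests on shares). Its Wilson 95% intervals were at most 3.17 points wide, and cover counting error only.

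For Cabyr, contigs of the same gene parted. Cabyr-202 (ENSMUST00000115857, chromosome 18, 12741324 to 12755146, plus strand) was at 46.5, 33.4 and 50.3 CPM in RS wt/wt, 46.0, 40.6 and 55.2 CPM in RS dcat/dcat, 315, 280 and 254 CPM in ES wt/wt and 315, 280 and 223 CPM in ES dcat/dcat. All ES libraries were several times above all RS libraries, with a rise of 2.69 ± 0.22 in wt/wt (adjusted p = 1.67e-06) and 2.51 ± 0.22 in dcat/dcat (adjusted p = 3.11e-06). Cabyr-204 (ENSMUST00000121018) was at 179, 148 and 134 CPM in RS wt/wt, 182, 111 and 110 CPM in RS dcat/dcat, 95.1, 66.6 and 88.3 CPM in ES wt/wt and 111, 22.5 and 45.6 CPM in ES dcat/dcat. It was lower in all ES libraries of wt/wt, where the change missed the threshold (-0.89 ± 0.38, adjusted p = 0.0778), and the groups overlapped in dcat/dcat, where it passed (-1.17 ± 0.39, adjusted p = 0.027). The dcat/dcat call was lost in the fit on those 2 groups alone (adjusted p = 0.0597) and without replicate 1 of RS dcat/dcat, replicate 2 or replicate 3 of ES dcat/dcat (adjusted p = 0.0998, 0.11 and 0.124). The wt/wt change passed with the 2 groups alone, under scaling by total counts, and without replicate 1 or 2 of ES dcat/dcat (adjusted p = 0.0185 and 0.0431). With the block it was -0.92 (adjusted p = 0.002). Without replicate 2 of ES wt/wt it was -0.66 (adjusted p = 0.3).

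These contigs differ in their last exons. Exon 4 starts at 12750660 in both and has 1169 bases in Cabyr-202 and 345 in Cabyr-204, which has a further exon of 603 bases, from 12753861 to 12754463, that Cabyr-202 lacks. The coding length is 1359 bases for Cabyr-202 and 1143 for Cabyr-204. Cabyr-202 took between 12.6 and 19.8% of the gene's reads in the 6 RS libraries and between 53.9 and 64.5% in the 6 ES libraries. Cabyr-204 took between 39.6 and 63.6% in RS and between 4.79 and 22.0% in ES, a difference in means of -37.6 percentage points (p = 0.005 in the exact permutation test, q = 0.02). Summed over its 4 contigs, the gene rose by 0.90 ± 0.14 in wt/wt and 0.88 ± 0.14 in dcat/dcat on the TMM scale. As a plain share of counts it took 0.0351 ± 0.00157% of RS reads and 0.0370 ± 0.00155% of ES reads in wt/wt.

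The remaining Cabyr contigs changed less. Cabyr-208 has the same exon 4 of 345 bases and exon of 603 bases as Cabyr-204, with another first exon. Its changes were 0.55 ± 0.42 and 0.69 ± 0.41 and missed the threshold. With the block these were 0.58 (adjusted p = 0.0174) and 0.67 (adjusted p = 0.00524). With single libraries left out they ran from 0.25 to 0.92 and from 0.41 to 0.99, none past the threshold. Cabyr-206, which holds both the long exon 4 and the exon of 603 bases, had 0.25 ± 0.35 and 0.16 ± 0.34. Under scaling by total counts these changes in wt/wt were -0.15 for Cabyr-208 and -0.47 for Cabyr-206. The log2 ratio of Spa17 to Cabyr reads rose by 0.44 from RS to ES (p = 0.005 in the exact permutation test, q = 0.0133).

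Ropn1 reads shifted between contigs too. Ropn1-203 (ENSMUST00000231612) is annotated as a processed transcript with no coding region. Its first exon of 495 bases, from 34666317, ends at the same base as the second exon of Ropn1-201, and the later exons are shared apart from their end. It was at 42.4, 127 and 137 CPM in RS wt/wt, 50.2, 112 and 102 CPM in RS dcat/dcat, 484, 685 and 424 CPM in ES wt/wt and 582, 649 and 498 CPM in ES dcat/dcat. The rise of 2.38 ± 0.37 in wt/wt (adjusted p = 0.000164) and 2.71 ± 0.38 in dcat/dcat (adjusted p = 6.65e-05) left Ropn1-201 with between 62.4 and 67.6% of the gene's reads in ES, against between 73.1 and 88.2% in RS. That difference of -15.8 percentage points had p = 0.005 in the exact permutation test (q = 0.02). Contigs of a gene overlap in sequence, and reads that stop short of the start can fit more than a single contig, so how reads were divided among them is less certain than the sum over a gene.

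Tests of the share on a gene's most abundant contig covered the 6 genes with at least 2 contigs and 20 reads in every library. RS and ES libraries did not overlap for 3 of the 6 (Ropn1, Spa17 and Cabyr), against 10.1% of 1347 such genes in the whole table. For Akap4-201 the share lay between 33.3 and 49.0% in RS and between 46.7 and 67.6% in ES, with a stage difference of 13.2 points over both genotypes (p = 0.01 in the exact permutation test, q = 0.03). For Fsip2-203 it was 86.4 ± 4.02% in RS and 81.1 ± 6.43% in ES of wt/wt, and 89.7 ± 3.57% and 71.4 ± 6.79% in dcat/dcat (SD, n = 3), with a difference over both genotypes of -11.8 points (p = 0.015, exact permutation test, q = 0.036). Both differences missed the threshold with some libraries left out, Akap4-201 without replicate 2 or 3 of RS wt/wt, replicate 3 of ES wt/wt or replicate 2 of ES dcat/dcat (q between 0.06 and 0.084), and Fsip2-203 without any of 7 libraries. The share on Akap3-201 did not differ between stages beyond the spread (difference -1.20 points, p = 0.82, exact permutation test).

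**Figure D4:**
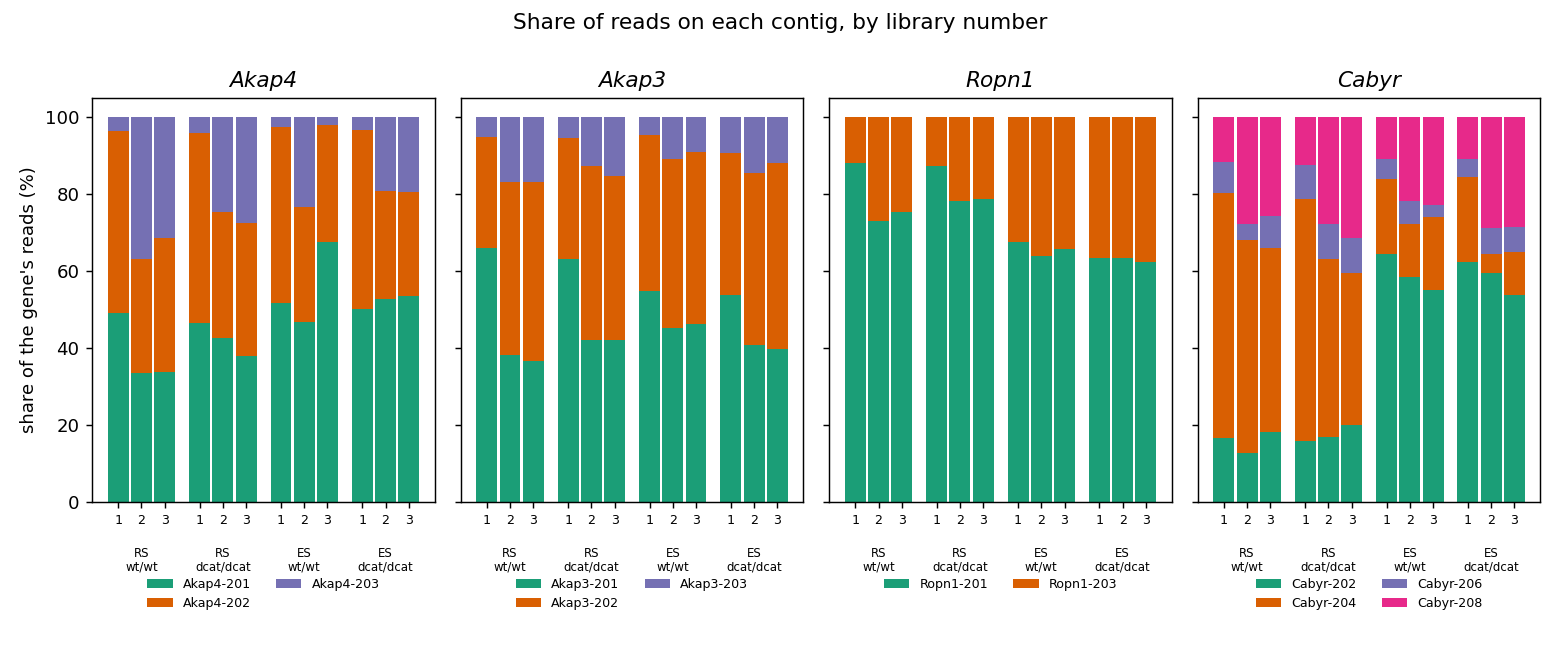
Share of each gene's reads (y axis, percent) on each of its contigs, as stacked bars for the 12 libraries, marked by library number within each group, for Akap4, Akap3, Ropn1 and Cabyr. Cabyr-202 widens and Cabyr-204 narrows in ES, while Akap4-203 and Cabyr-208 are narrow in the libraries numbered 1.

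The shares also differed with the replicate number in the labels, at both stages and in both genotypes. Akap4-203 took between 2.55 and 4.14% of Akap4 reads in the 4 libraries numbered 1. In the 8 libraries numbered 2 or 3 it took between 2.13 and 36.9%, the lowest being replicate 3 of ES wt/wt and the median 24.0%. Akap4-202 took between 45.9 and 49.4% in libraries numbered 1 and between 27.2 and 34.8% in the others, with no overlap. Cabyr-208 took between 10.8 and 12.5% of Cabyr reads in the libraries numbered 1 and between 21.8 and 31.4% in the others. Akap3-201 took between 53.7 and 65.9% of Akap3 reads against between 36.5 and 46.2%.

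Such differences were common across the whole table. The share on the most abundant contig did not overlap between the 4 libraries numbered 1 and the 4 numbered 2 for 1 of the 6 member genes (Akap3) and for 37.9% of the 1347 genes. Between those numbered 1 and 3 it was again Akap3, and 31.0% of all. Between those numbered 2 and 3 it was 0 of the 6 and 1.71% of all. What the libraries numbered 1 have in common was not tested. When the fit used the libraries numbered 2 and 3 only, a choice made after these shares were seen, 15 of 20 member contigs were called in wt/wt, against 43.7% of the 10290 contigs tested, and 16 in dcat/dcat, against 46.4%. In that fit Akap4-203 was called in both genotypes, at 1.27 ± 0.39 (adjusted p = 0.00827) and 2.05 ± 0.40 (adjusted p = 5.51e-05).

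The second comparison was between genotypes, dcat/dcat against wt/wt, at each stage. No member contig was called in RS or in ES, and 0.0% of all contigs were called at either stage (edgeR). DESeq2 also called 0 member contigs. At an unadjusted p under 0.05, 0 of 20 passed in RS, where 0.828% of all contigs did, and 0 of 20 in ES, where 3.01% did. The log2 differences of the 20 contigs ran from -0.52 to 0.31 in RS, with a median of 0.02, and from -1.09 to 0.75 in ES, with a median of 0.00. Their SE lay between 0.11 and 0.99 in RS and between 0.12 and 0.98 in ES, so that for the abundant Ropn1l-201 a difference is bounded closely and for Akap4-203 or Fsip1-204 hardly at all.

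The dcat/dcat and wt/wt libraries did not overlap for 2 member contigs in RS, against 5.31% of all, and for 1 in ES, against 7.66%. Akap4-201 was at 216, 233 and 252 CPM in RS dcat/dcat and 191, 167 and 215 CPM in RS wt/wt, the lowest of the first barely above the highest of the second (0.29 ± 0.15, unadjusted p = 0.0689 by edgeR). Fsip1-201 was lower in RS dcat/dcat (-0.27 ± 0.31) and Fsip1-202 lower in ES dcat/dcat (-0.23 ± 0.22), neither past the threshold. Summed by gene, the difference between genotypes was at most 0.17 in size in RS and 0.33 in ES, the latter for Fsip1 (-0.33 ± 0.22), and none was called. In permutation tests with single libraries left out, the genotype difference in the log2 ratio of Fsip2 to Fsip1 ran from 0.20 to 0.54 (q between 0.144 and 0.608). This difference reached the threshold with swaps between same-numbered libraries, as given in the closing section.

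**Figure D5:**
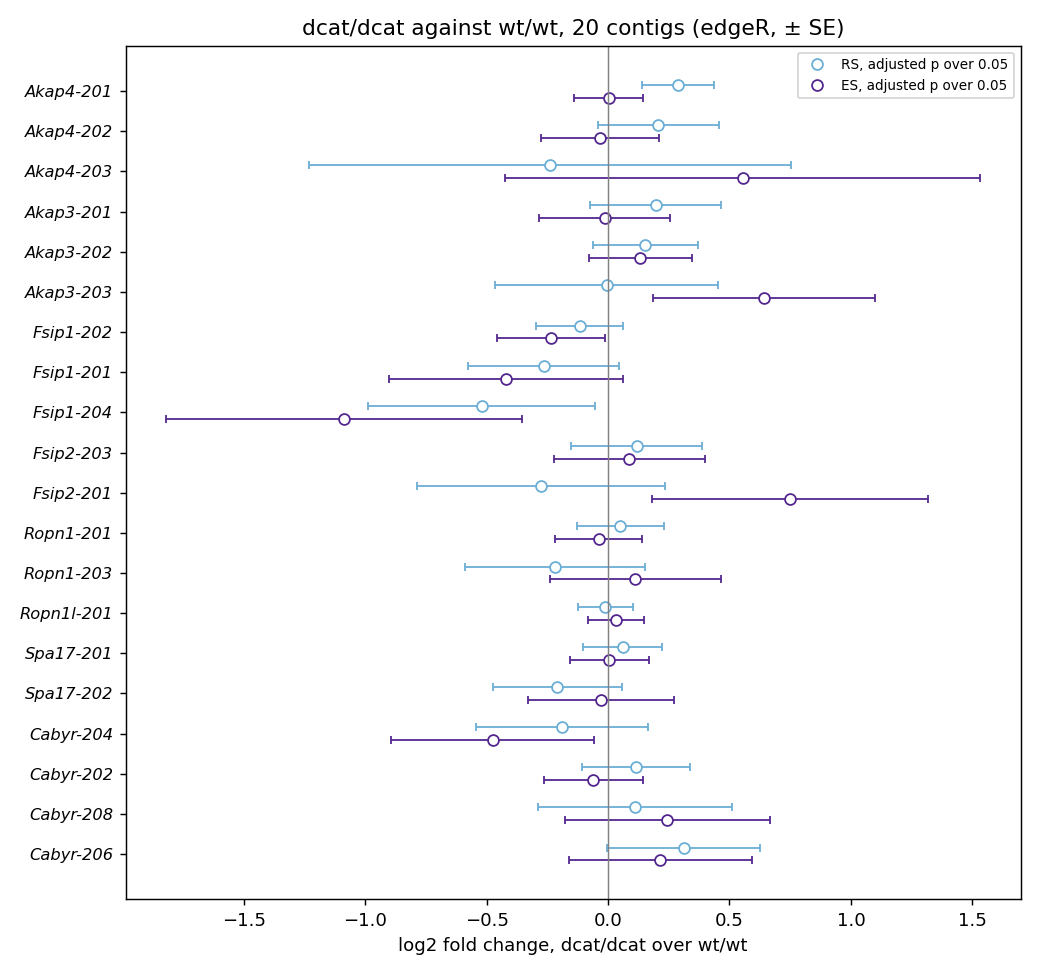
Log2 fold change of dcat/dcat over wt/wt for the 20 member contigs (x axis) in RS (light blue) and ES (purple); whiskers are the SE from edgeR and all points are open, since no adjusted p was at or under 0.05. The abundant contigs lie near 0 with short whiskers, and Akap4-203, Fsip1-204 and Fsip2-201 have the long ones.

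The third comparison asked whether the change from RS to ES differed between genotypes. The interaction was called for 0 of 20 member contigs by edgeR and for 0 by DESeq2, and 0.0% of all contigs were called. At an unadjusted p under 0.05, 0 of 20 passed, where 1.44% of all did. The interaction values ran from -0.57 to 1.03, the highest being Fsip2-201 (1.03 ± 0.77). For Akap4-201 the value was -0.28 ± 0.20, for Ropn1l-201 0.04 ± 0.16 and for Cabyr-202 -0.18 ± 0.30. The stage changes of both genotypes share no library, and the calls of each are given side by side above.

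A list of 34 further genes of the sheath and of kinase anchoring was read in the same fits: other anchoring proteins, kinase A subunits, sheath partners including the glycolytic enzymes bound there, and proteins with a related docking fold. Of these, 23 genes had 48 contigs tested. In wt/wt, 25 of the 48 contigs rose, against the 23.8% of all contigs given above, and 5 fell, against 16.5%. In dcat/dcat 24 rose and 6 fell, against 24.0% and 16.9%. The median log2 change was 1.03 and 1.08, beside -0.24 and -0.18 over all contigs. Under scaling by total counts the split was 17 higher to 12 lower for wt/wt, and 17 to 13 for dcat/dcat, where the shares of all contigs were 16.5% and 45.7%, and 16.6% and 42.2%. For the genotype at either stage and for the interaction, 0 of the 48 were called by edgeR or DESeq2, and 0 had an unadjusted p under 0.05 in edgeR.

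The same shares of all contigs stand beside the counts for each group of the list. Among the 11 sheath partners, 16 of 25 contigs rose and 1 fell in wt/wt, and 15 rose and 0 fell in dcat/dcat. The contig that fell is of Slc25a31, an ADP/ATP carrier of the sperm tail (-1.09 ± 0.37). Fscb, a calcium-binding protein of the sheath that binds CABYR, rose by 2.21 ± 0.21 in wt/wt, from 95.2 ± 14.2 to 441 ± 48.4 CPM (SD, n = 3), and by 2.27 ± 0.21 in dcat/dcat. Among other anchoring proteins, 7 of 13 contigs rose and 0 fell in wt/wt, all 7 belonging to Akap1 (an anchor on the outer mitochondrial membrane) and Akap12 (a scaffold at the plasma membrane). The Akap1 contig with the smallest adjusted p rose by 2.51 ± 0.24 and 2.59 ± 0.24. In dcat/dcat 7 rose and 1, of Akap8l, fell.

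Of the proteins with a related docking fold, Dydc2 and Dydc1 moved in opposite directions, and both Dpy30 contigs missed the threshold. Dydc2 rose by 3.17 ± 0.30 in wt/wt, from 39.1 ± 16.9 to 353 ± 45.6 CPM, and by 2.95 ± 0.30 in dcat/dcat. Dydc1 fell on 2 contigs, with changes in wt/wt of -1.36 ± 0.30 and -2.01 ± 0.45. Of the kinase A subunits, 1 contig rose and 2 fell in wt/wt and 1 rose and 3 fell in dcat/dcat. The contig that rose is of Prkar2a, the type II alpha regulatory subunit, with 2.93 ± 0.28 and 2.70 ± 0.28. Prkar1a, the type I alpha regulatory subunit, fell in its contig with the smallest adjusted p by changes of -1.03 ± 0.29 and -1.32 ± 0.29. The other falls were of its second contig and, in dcat/dcat, of Prkaca, a catalytic subunit (-1.18 ± 0.32). Slc25a31, Akap12, Akap8l, Prkar2a and Prkaca were named after their values had been seen.

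Contigs of other genes with the most similar profile were ranked by the root mean square distance of centred log2 CPM over the 12 libraries, as a description without a test. Nearest to Akap4-201 were contigs of 1700001O22Rik, Ubqlnl and Tmem269, at distances between 0.18 and 0.24. Nearest to Akap3-201 was Odf2, an outer dense fibre protein of the tail (0.20), then Ipo5 and Galm. Nearest to Ropn1-201 was Riiad1, a further gene named for the docking domain (0.11), then 4933402J07Rik and, among the members themselves, Spa17-201 (0.12). Nearest to Spa17-201 were Gm5617, Scp2d1 and Tsacc, and to Ropn1l-201 Iftap, Cmtm2a and Ppp3r2 (0.08 to 0.09). Nearest to Fsip1-202 were Dynlt1b, Tuba3b and Pierce2, to Fsip2-203 Ggnbp2, Nipbl and Amn1, and to Cabyr-204 Dedd, Slc25a28 and Stxbp2. Depth and library number are shared by all contigs of a library and enter every such distance.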

How the data were processed

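For each of 12 libraries the deposited table gave unnormalized counts, the number of reads assigned to a contig. The authors called bases with Guppy, aligned reads with minimap2 to genes of GENCODE vM17 (GRCm38), kept reads whose tail passed Nanopolish and demultiplexed with Deeplexicon. By the study's methods, barcodes in these libraries marked the end of the tail (unmodified, or with added U or G) and not the sample. Selection on poly(A) and truncated reads can both change counts per contig. Deposited DESeq2 tables hold the authors' fold changes and p-values, and only their gene symbols were used. Coordinates, exons and transcript names came from GENCODE vM21, the same build, and promoters from RefSeq. Totals ran from 337287 to 1359427 counts, and 3 counts correspond to between 2.21 and 8.89 CPM before scaling.

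Groups and replicate numbers came from the labels. The 11831 contigs that reached 10 reads in 2 or more libraries of any group were fitted with edgeR 4.0.16 (TMM, glmQLFit, glmQLFTest, 4 group means, Benjamini-Hochberg over all contigs), checked on simulated data. SE is the log2 change over the root of F. Adjusted p-values are written q for permutation families. Shares and ratios of each library were compared by exact two-sided permutation of stage within genotype, or of genotype within stage. Same-numbered libraries correlated in their deviations from the group means by 0.52, 0.25 and 0.29 between RS and ES of dcat/dcat, and by 0.70, 0.38 and 0.47 between genotypes in RS. Every same-numbered pair there was over 0.1. Between RS and ES of wt/wt (0.40, 0.36 and -0.09) and between genotypes in ES (0.45, 0.31 and 0.03) not every same-numbered pair was. Libraries numbered 2 and 3 also correlated with each other, by 0.19 in both crossings of dcat/dcat stages and by 0.27 and 0.23 between genotypes in RS. Crossings with number 1 in these 2 comparisons ran from -0.51 to -0.33. Replicate 3 of RS wt/wt with replicate 2 of ES wt/wt gave 0.34. The study's methods state that germ cell stages were isolated from the same mice and that each sorting session held a mouse of each genotype. Which mice entered which numbered pool is not given in the sources used here, so the pairing of numbers is not settled. Blocked values are printed where they change a stage call.

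Members, lists and tests were chosen with earlier results of these data known. Named genes were all members, up to 3 rising and 3 falling list contigs with the smallest adjusted p per stage comparison, and the 3 nearest profiles per gene. Alternatives were DESeq2 1.42.0, total-count or RLE scaling, other filters, counts summed by gene, robust moderation, the compared groups alone, a replicate block and leaving out each library.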

Additional observations from a re-analysis of the deposited data

How the results depend on the processing

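Member and list calls kept their count within 1.5 times, or at 0 for genotype and interaction, under every alternative except summing counts by gene, which tests fewer features: 7 of 8 member genes were then called in each genotype between stages, and 14 and 15 of 23 list genes in wt/wt and dcat/dcat, against 49.0% and 49.2% of all 7706 features. With single libraries left out, between 10 and 12 member contigs were called in wt/wt and between 11 and 13 in dcat/dcat. The replicate block called 16 in wt/wt, against 51.6% of all contigs, and 17 in dcat/dcat, against 51.9%. It changed no genotype or interaction call. With swaps only between same-numbered libraries, where the smallest p of 0.03125 limits the test, the stage differences in the summed share (0.144, q = 0.0625), and in the shares on Akap4-201 (13.2), Fsip2-203 (-11.8), Ropn1-201 (-15.8), Spa17-201 (4.36) and Cabyr-204 (-37.6) missed the threshold, and the genotype difference in Fsip2 over Fsip1 (0.40) reached it at q = 0.05. On the most abundant contigs alone, the genotype difference in Akap4 over Akap3 was 0.0275 against -0.03, and Fsip2 over Fsip1 had a stage difference of 0.64 that missed the threshold.

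Leaving out single libraries gave these ranges. For stage they were -3.78 to 3.58 points for the share on Akap3-201, 10.1 to 15.8 for Akap4-201, -13.8 to -10.5 for Fsip2-203, and 0.73 to 1.05 for the log2 ratio of Fsip2 to Fsip1. For genotype they were -4.33 to 3.94 (Akap3-201), -1.99 to 3.25 (Akap4-201) and -1.56 to 2.23 points (Ropn1-201). Genotype differences in log2 ratios were -0.15 to 0.0794 (Akap4 to Akap3), -0.0993 to 0.0720 (Ropn1l to Ropn1), -0.0058 to 0.14 (Spa17 to Cabyr) and 0.20 to 0.54 (Fsip2 to Fsip1). For Fsip2-203 the stage changes ran from -0.75 to -0.23 in wt/wt and from -0.75 to -0.32 in dcat/dcat. Stage changes that crossed 0 were -0.76 to 1.87 for Akap4-203 and -0.32 to 0.68 for Fsip2-201 in wt/wt, and -0.45 to 0.0824 for Spa17-202 in dcat/dcat. Total-count scaling turned Fsip2-201 (-0.57), Cabyr-208 (-0.15) and Cabyr-206 (-0.47) in wt/wt and Cabyr-206 (-0.51) in dcat/dcat. The cause of these shifts was not tested. Low counts of Fsip1, Fsip2-201 and Cabyr-206 limit what could be detected.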
